A study of Mus musculus with 8 samples.

Results

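miR-126-3p and miR-126-5p are the mature miRNAs cut from the opposite arms of the miR-126 hairpin. Their levels, and the difference between them, were followed in the livers of mice given carbon tetrachloride (CCl4), a hepatotoxin used to produce liver fibrosis. The 2 assays were chosen by name from 381 assays, each a quantitative PCR for 1 small RNA in its own well of a TaqMan Array Rodent MicroRNA A Card. Both arms had a determined value on 8 of 8 cards, and both were among the 166 assays that were tested. All cards held total RNA of whole liver from C57B6 female mice (C57/BL6 in the study's methods) that were 4 weeks old when treatment began. The groups were untreated mice and mice given CCl4 in corn oil by intraperitoneal injection for 1, 4 or 8 weeks. The dose is 1 mg/kg in the labels but 1 ml/kg in the study's methods. Each of the 4 groups had 2 cards. The labels do not say whether replicates were separate mice, so the p-values measure only the spread between these samples, which may be technical. The labels also do not say whether untreated mice received corn oil.

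miR-126 lies within Egfl7, a gene for a secreted protein of blood vessels, and is made mainly in endothelial cells, the cells that line vessels. In those cells miR-126-3p is known to repress Spred1 and Pik3r2, which restrain signalling from the VEGF receptor, and miR-126-5p is known to repress Dlk1, an inhibitor of Notch signalling. In liver, endothelium lines the large vessels and the sinusoids, the capillaries through which blood passes the hepatocytes. The cards hold assays of small RNAs and no assay of an endothelial mRNA, so the endothelial origin of the signal was not checked here. In RNA of a whole organ, fewer endothelial cells and less miR-126 per cell cannot be told apart.

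The mature miR-126-3p is shown because its seed, the stretch of bases 2 to 8 that pairs with target mRNAs, sets which mRNAs it can repress. Capitals mark the seed in the RefSeq sequence of mmu-miR-126a-3p, written 5′ to 3′.

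miR-126-3p: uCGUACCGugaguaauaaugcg

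These 22 bases lie at chr2:26591402-26591423 on the plus strand of GRCm38.p6, where the hairpin gene Mir126a lies within Egfl7 on the same strand. Of 1738 mature mouse entries in the RefSeq table, 1 has this seed, miR-126-3p itself. Of its bases, 12 are A or U. Of the 2 arms, 1 was matched in this table, and miR-126-5p was not.

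The threshold cycle (Ct) is the PCR cycle at which an assay's signal crosses a set line, so that each cycle less stands for roughly a doubling of the template. Between 193 and 235 assays had a determined Ct on a card. A set of 149 assays stayed below Ct 35 throughout, and its mean Ct per card ran from 27.5 to 29.8, and the faintest card was replicate 2 at 4 weeks. miR-122, the most abundant miRNA of hepatocytes, was determined on all 8 cards at Ct 21.95 to 24.16, and the plant control assay on 0. To compare cards, the Ct of an assay was subtracted from the card's mean Ct over that set. This centred level is on a log2 scale and is higher where there is more of the miRNA. A centred level orders cards for 1 assay and does not compare the amounts of the 2 arms, because assays differ in efficiency.

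The 3p arm gave one of the strongest signals on the cards. The untreated replicates had miR-126-3p at Ct 20.57 and 19.68, and those given CCl4 for 1 week at Ct 20.05 and 19.95. After 4 weeks its Ct was 21.63 on replicate 1 and 23.97 on replicate 2, and after 8 weeks 19.97 on replicate 1 and 22.15 on replicate 2. Its mean Ct of 21.0 was in place 2 of the tested assays counted from the lowest, after the control RNA U6 at 18.2. The tested assays include the control RNAs U6, snoRNA135, snoRNA202, U87 and Y1. After centring, miR-126-3p stood at 7.78 and 8.31 in untreated liver and at 8.72 and 8.65 after 1 week. The centred level then stood at 6.62 and 5.80 after 4 weeks of CCl4 and at 7.51 and 6.73 after 8 weeks. The cards at 1 week were thus the highest, the untreated cards next, then the cards at 8 weeks, and the cards at 4 weeks the lowest, with no overlap between any pair of groups. In linear terms, relative to the geometric mean of the untreated cards, the level was 1.02 ± 0.264 in untreated liver, 1.56 ± 0.0520 at 1 week, 0.293 ± 0.115 at 4 weeks and 0.547 ± 0.205 at 8 weeks (mean ± SD, n = 2 cards each).

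The 5p arm followed the same order of group means. Untreated liver gave Ct 23.89 and 23.45, and liver after 1 week Ct 24.18 and 23.95. After 4 weeks the Ct of miR-126-5p was 25.11 on replicate 1 and 27.22 on replicate 2, and after 8 weeks 23.12 on replicate 1 and 25.85 on replicate 2. On the Ct scale the faintest card, replicate 2 at 4 weeks, was the highest for both arms. Centred, miR-126-5p stood at 4.46 and 4.54 in untreated liver and at 4.59 and 4.65 after 1 week. After 4 weeks of CCl4 the centred level stood at 3.14 and 2.55, and after 8 weeks at 4.36 and 3.03. The 4 cards of the untreated and 1-week groups lay close together. The cards at 8 weeks stood far apart, 1 close to the untreated pair and 1 within the range of the cards at 4 weeks. Relative to the geometric mean of the untreated cards, the level of miR-126-5p was 1.00 ± 0.0423 in untreated liver, 1.08 ± 0.0329 at 1 week, 0.325 ± 0.0928 at 4 weeks and 0.636 ± 0.389 at 8 weeks (mean ± SD, n = 2 cards each). The SD between replicates, pooled over groups on the log2 scale, was 0.44 for miR-126-3p and 0.52 for miR-126-5p, against a median of 0.39 over the tested assays.

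The comparison of each time with untreated liver asked when in the course of injury the arms moved. Differences were tested with limma, a linear model that was fitted to all tested assays at once, with Benjamini-Hochberg adjustment over the 166 assays of each comparison and a threshold of 0.05. Both arms were lower at 4 weeks. The log2 difference of miR-126-3p from untreated liver was -1.83 (SE 0.41, 95% interval -2.79 to -0.87, limma adjusted p = 0.0142), which put it in place 10 of the 166 assays counted from the lowest. For miR-126-5p the log2 difference was -1.65 (SE 0.46, 95% interval -2.71 to -0.59, limma adjusted p = 0.0294), in place 17. Of all tested assays, 16.9% were lower at 4 weeks by this test and 13.3% higher, and the median log2 difference of all assays was 0.03. These shares stand for 22 higher and 28 lower assays, and their balance moved with the scaling, to 45 higher and 11 lower with the control RNAs U6, snoRNA135 and snoRNA202 together, 67 and 2 with U6 alone, 26 and 11 with snoRNA202 alone, 12 and 27 centred on all determined assays, and 1 and 9 without normalization.

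These calls at 4 weeks depended on single cards. The 3p call was lost without untreated replicate 2 (log2 difference -1.56, limma adjusted p = 0.0855) or without replicate 2 at 4 weeks, the faintest card (-1.42, limma adjusted p = 0.0742). The 5p call was lost without untreated replicate 1 (-1.69), untreated replicate 2 (-1.61) or the faintest card (-1.36), with limma adjusted p = 0.0947, 0.121 and 0.131, and without either card at 1 week, at limma adjusted p = 0.0509.

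At 1 week neither arm passed the test with this centring. The log2 difference from untreated liver was 0.64 for miR-126-3p (95% interval -0.33 to 1.60, limma adjusted p = 0.256) and 0.12 for miR-126-5p (95% interval -0.95 to 1.18, limma adjusted p = 0.870). With this centring, both 1-week cards were above both untreated cards for each arm. Such a lack of overlap was common with 2 cards a group, since 76.5% of the tested assays had it at 1 week, 68.1% at 4 weeks and 60.8% at 8 weeks. By the test, 18.1% of assays were higher and 14.5% lower at 1 week. These 30 higher and 24 lower assays became 2 and 125 with U6 alone, 80 and 0 with snoRNA202 alone, 30 and 9 with snoRNA135 alone, 18 and 33 centred on all determined assays, and 4 and 1 without normalization. The 1-week value of miR-126-3p was 0.28 centred on all determined assays, 0.29 with their geometric mean, and 0.37 without untreated replicate 1. That of miR-126-5p turned to -0.24 and -0.23 with these 2 centrings. Centred on all determined assays, the 1-week and untreated cards overlapped for both arms. There miR-126-5p stood at 5.80 and 6.15 after 1 week and at 6.08 and 6.36 in untreated liver.

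At 8 weeks, with the same centring, the levels of both arms lay below both untreated cards and did not pass the test. This placement of the 5p arm moved with the scaling. Centred on all determined assays, miR-126-5p on 8-week replicate 1 stood at 6.10, between the untreated cards at 6.08 and 6.36. Scaled to the 3 control RNAs it stood at -1.86, above both untreated cards at -2.02 and -2.27. miR-126-3p differed from untreated liver by a log2 difference of -0.92 (95% interval -1.89 to 0.04, limma adjusted p = 0.201) and miR-126-5p by -0.80 (95% interval -1.87 to 0.26, limma adjusted p = 0.275). Few assays were called at this time, with 2.41% higher and 0.602% lower. Without 8-week replicate 1 the values at 8 weeks were -1.31 (3p) and -1.47 (5p), and without 8-week replicate 2 they were -0.53 and -0.14, which bound the values with each card left out.

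The treated groups were also compared with each other. All mice were 4 weeks old at the start and the untreated mice form a single group with no age at sampling in the labels, so length of treatment and age at sampling cannot be told apart in these comparisons, nor in those with untreated liver. Both arms were lower at 4 weeks than at 1 week. The log2 difference of 4 weeks from 1 week was -2.47 for miR-126-3p (SE 0.41, limma adjusted p = 0.00598) and -1.77 for miR-126-5p (SE 0.46, limma adjusted p = 0.0202). Of all tested assays 25.3% were lower at 4 weeks and 74.7% had groups that did not overlap. By the test 36 were higher and 42 lower, and these counts became 72 and 20 with the 3 control RNAs. They were 9 and 71 with snoRNA202 alone, and 7 and 22 without normalization. Of 25 alternatives, the 3p call was lost in 1 and the 5p call in 7, and each turned its sign in 1. For each arm 11 of the 25 left the value itself as it was, so they could not turn its sign. The 3p call held without each card in turn, at limma adjusted p from 0.00515 to 0.0330. The 5p call was lost without 1-week replicate 1, 1-week replicate 2 or the faintest card (limma adjusted p = 0.0738, 0.0850 and 0.0921).

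Between 1 and 8 weeks miR-126-3p was lower at 8 weeks, with a log2 difference of -1.56 (SE 0.41, limma adjusted p = 0.0332). Centred on the card mean of all determined assays, this difference was -1.27 and did not pass (limma adjusted p = 0.137). Of 25 alternatives, 11 lost the call and 1 turned its sign, and 11 of the 25 did not move the value itself. For miR-126-5p the log2 difference was -0.92 (95% interval -1.98 to 0.14, limma adjusted p = 0.166). In this comparison 13.9% of assays were lower and 71.7% had groups that did not overlap. The test called 17 assays higher and 23 lower, a balance that moved with the scaling. Taking U6 alone as the reference gave 154 higher and 0 lower, while snoRNA202 alone gave 3 and 79. Scaling to the mean of the 3 control RNAs gave 46 higher and 10 lower. Unscaled Ct values gave 6 higher and 2 lower. The 3p call was lost without 1-week replicate 1, 1-week replicate 2 or 8-week replicate 2 (limma adjusted p = 0.122, 0.127 and 0.176), and the 5p arm passed without 8-week replicate 1 (log2 difference -1.59, limma adjusted p = 0.0271). From 4 to 8 weeks the log2 difference was 0.91 for miR-126-3p (limma adjusted p = 0.267) and 0.85 for miR-126-5p (limma adjusted p = 0.334), and neither passed. Leaving out each card in turn, these values ran from 0.50 to 1.32 and from 0.18 to 1.51. There 0.602% of assays were higher, and 47% had groups that did not overlap, miR-126-3p among them and miR-126-5p not.

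**Figure D1:**
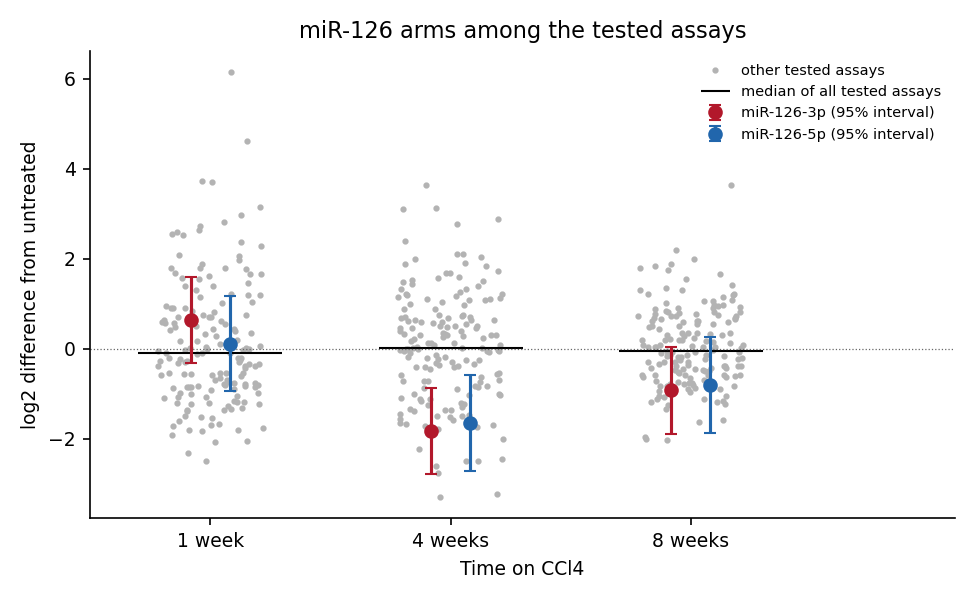
Log2 difference from untreated liver (y axis) of miR-126-3p and miR-126-5p (coloured points with 95% intervals from limma) and of the other tested assays (grey points) at 1, 4 and 8 weeks (x axis), with a line at the median of all 166. At 4 weeks the arms, at -1.83 and -1.65, lie in the lower tail, in places 10 and 17 of 166.

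The size of these differences, and in places their direction, moved with the scaling of the cards. Centred on the geometric mean of each card, the normalization that the study's methods name, and on the card median, both arms were still lower at 4 weeks by the test. Scaled instead to the mean of the 3 control RNAs U6, snoRNA135 and snoRNA202, the log2 difference at 4 weeks was -1.19 for miR-126-3p and -1.01 for miR-126-5p, and neither passed (limma adjusted p = 0.0693 and 0.135), while the median log2 difference of all assays moved from 0.03 to 0.67. The control RNAs did not move together, and the median log2 difference of all assays at 1 week was -2.47 when scaled to U6 alone and 1.30 when scaled to snoRNA202 alone. With U6 alone, the differences of 4 weeks from 1 week turned to 1.42 for miR-126-3p and 2.12 for miR-126-5p, both past the threshold (limma adjusted p = 0.0246 and 0.00454), and the values at 8 weeks against untreated turned to 0.19 and 0.31. With U6 alone 152 of all 166 assays were higher at 4 weeks than at 1 week. At 1 week against untreated, miR-126-3p passed as lower with U6 alone (-1.74) and as higher with snoRNA202 alone (2.03), and miR-126-5p as lower with U6 alone (-2.26). The fall at 4 weeks against untreated kept its sign for both arms under each scaling that was run.

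**Figure D2:**
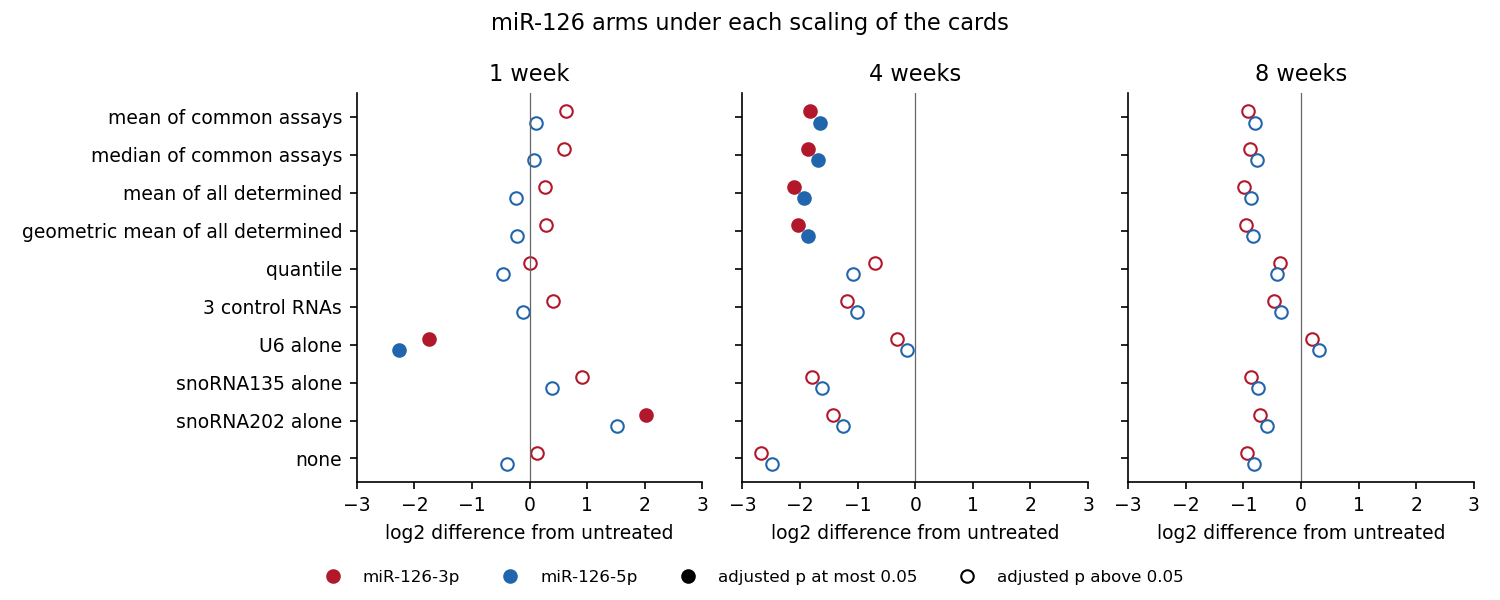
Log2 difference from untreated liver (x axis) of both miR-126 arms at 1, 4 and 8 weeks under each scaling of the cards; filled points have a limma adjusted p of at most 0.05. At 4 weeks all points lie below 0, from -2.67 with no normalization to -0.14 with U6 alone, while at 1 week the sign differs between scalings and at 8 weeks it turns with U6 alone.

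Because both arms are cut from the same hairpin, the difference between their Ct values on a card shows whether one changed relative to the other. This difference, the Ct of miR-126-5p minus that of miR-126-3p, equals the log2 ratio of the 3p to the 5p arm up to a constant of the assays, and needs no scaling. Untreated liver had arm differences of 3.32 and 3.77, and liver after 1 week of CCl4 had 4.13 and 4.00. The pair after 4 weeks had 3.48 and 3.25, and the pair after 8 weeks 3.15 and 3.70. The 1-week cards were above the other 6, and the cards of the other 3 groups overlapped. Over the 4 groups the arm difference did not vary beyond the spread between replicates, with F = 2.83 and p = 0.181 in an exact permutation test over all distinct arrangements of the cards in pairs, where the smallest possible p was 0.00952. The SD between replicates was 0.27, and all 8 cards lay within 0.98 on the log2 scale.

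Against untreated liver, the arm difference was 0.52 higher at 1 week, and the differences were -0.18 at 4 weeks and -0.12 at 8 weeks. The exact two-sided permutation p was 0.333 at 1 week, the smallest that 2 cards against 2 allow, and 0.667 at 4 and at 8 weeks. Leaving out each card in turn, the value at 1 week ran from 0.29 to 0.74, and F over the 4 groups from 1.07 to 5.51. The lower levels of both arms at 4 weeks were thus accompanied by an arm ratio whose cards overlapped those of untreated liver, and an unequal fall of the arms was not detectable with 2 cards a group.

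Of the other hairpins on the card, 5 had both arms among the tested assays. The arm difference at 1 week minus that in untreated liver was 2.09 for miR-339, -1.82 for miR-142, -0.63 for miR-335, -0.61 for miR-340 and -0.38 for miR-532. Their values are given without a test. Both 1-week cards lay above the other 6 for 1 of these hairpins, as they did for miR-126, below the other 6 for 2, and among them for 2. The 8 cards spanned 0.98 for miR-126 and from 0.84 for miR-335 to 4.71 for miR-339.

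**Figure D3:**
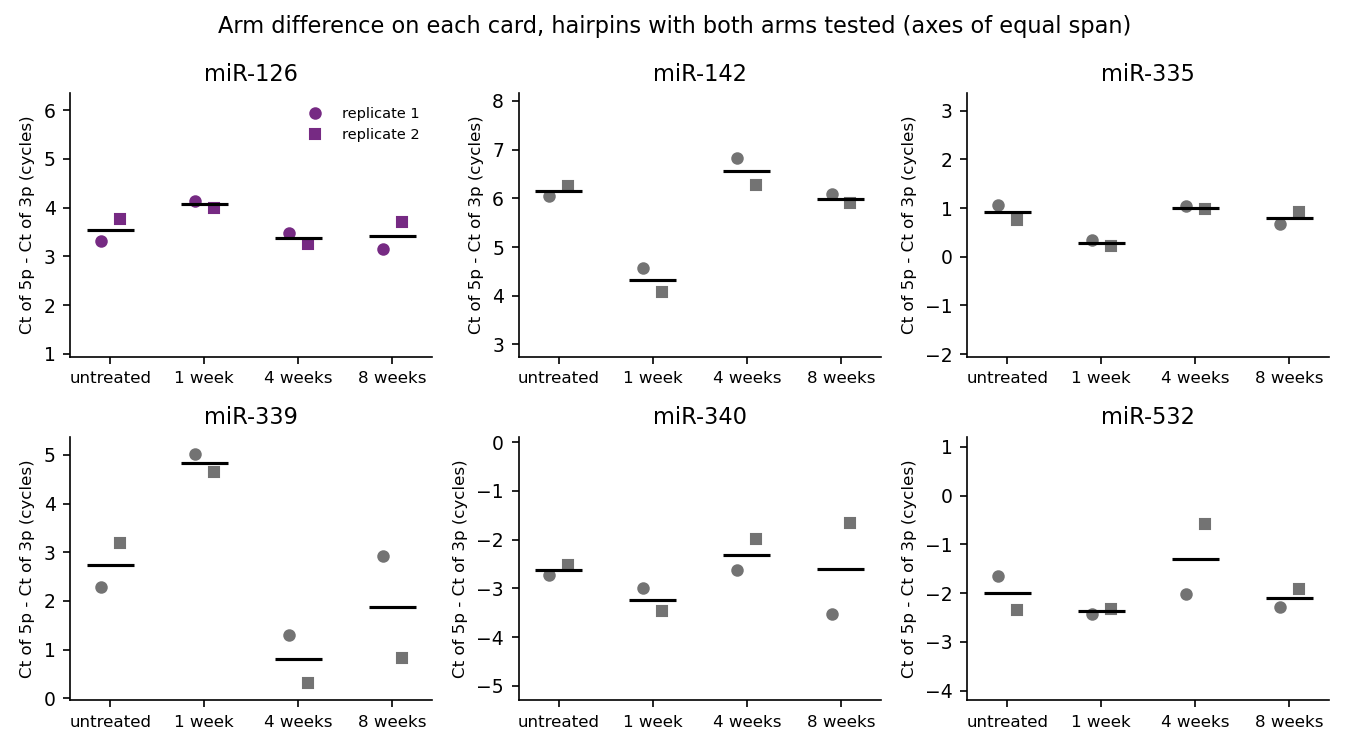
Ct of the 5p arm minus Ct of the 3p arm (y axis, cycles) on each card, by group (x axis), for miR-126 and the 5 other hairpins with both arms tested; circles and squares are replicates 1 and 2, lines are group means, and all panels span the same number of cycles. For miR-126 the 1-week cards, at 4.13 and 4.00, are above the other 6, and all 8 lie within 0.98.

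Taking all 6 CCl4 cards against the 2 untreated cards, the mean centred level differed by -0.71 on the log2 scale for miR-126-3p and by -0.78 for miR-126-5p. The exact two-sided permutation p over 28 arrangements was 0.464 for the 3p arm and 0.357 for the 5p arm, and 0.696 for each after adjustment over the 3 tests of this kind. The smallest possible p was 0.0357. With this centring, for each arm 4 of the 6 treated cards, those at 4 and 8 weeks, were below both untreated cards. The other 2, those at 1 week, were above both. Groups did not overlap in 76.5%, 68.1% and 60.8% of all tested assays at 1, 4 and 8 weeks. Centred on all determined assays, miR-126-5p stood at 6.15 on 1-week replicate 2 and 6.10 on 8-week replicate 1. Both values lay between the untreated cards at 6.08 and 6.36. The arm difference over the same cards was 0.07 higher with CCl4 (exact permutation p = 0.821).

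The tested assays with the most similar course over the 8 cards were ranked by the Pearson correlation of centred levels, given as a description, since all points share the cards and their centring. The 5 most like miR-126-3p, the other arm left out, were miR-16 (0.980), miR-24 (0.980), miR-186 (0.968), miR-425 (0.954) and miR-203 (0.942). The 5 most like miR-126-5p were miR-101a (0.956), miR-192 (0.924), miR-30e (0.922), miR-16 (0.921) and miR-425 (0.914). The 3p and 5p arms correlated at 0.951, which put the 5p arm in place 5 for the 3p arm and the 3p arm in place 2 for the 5p arm. Since these 8 distinct assays were chosen for their likeness to arms that are lowest at 4 weeks, their differences are given as a description, with no test. At 4 weeks the log2 difference from untreated liver ran from -2.76 for miR-192, a miRNA of hepatocytes and other epithelia, to -0.69 for miR-425, with a median of -1.75. The median was 0.42 at 1 week and -1.14 at 8 weeks. At 1 week it was 0.06 centred on all determined assays and -0.09 without normalization, and at 8 weeks -0.66 without 8-week replicate 2. With U6 alone these medians were -1.95, -0.25 and -0.03 at 1, 4 and 8 weeks, so that the order of the times changed with the scaling.

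A list of 16 other miRNAs linked to vessels and angiogenesis was set beside the arms, and 15 of them were tested. At 4 weeks 1 of the 15 was higher and 2 were lower, beside 13.3% higher and 16.9% lower over all tested assays, with a median log2 difference of -0.19 against 0.03 over all of them. The sign of that median turned when the cards were scaled to the 3 control RNAs (0.45), U6 alone (1.31) or snoRNA202 alone (0.20), and without 4-week replicate 1 (0.05) or untreated replicate 1 (0.02). miR-132, which promotes endothelial growth, was higher at 2.10, and miR-31 and miR-27b were lower at -1.24 and -1.09. With the 3 control RNAs 3 of the 15 were higher and 0 lower, beside 45 and 11 of all 166 assays. With U6 alone 4 were higher and 0 lower, beside 67 and 2. Without normalization the number called was 0, beside 1 higher and 9 lower, and 5 had an unadjusted p under 0.05 in limma. Without untreated replicate 1 or the faintest card 1 of the 15 was lower, and without untreated replicate 2 the number was 0, where 3 had an unadjusted p under 0.05 in limma. Without 4-week replicate 1 neither miR-31 nor miR-27b was called, and miR-218 and miR-10b were called lower. miR-218, a regulator of Slit and Robo signalling, had the lowest value of the list at -1.36 and did not pass, and miR-221 followed miR-132 at 0.75 and did not pass either. At 1 week 3 of the 15 were higher and 2 lower, beside 18.1% and 14.5% over all tested assays. The higher ones had log2 differences of 1.39 for miR-132, 1.20 for miR-222 and 0.90 for miR-31, and the lower ones were miR-27b at -1.54 and miR-10b at -1.33. The median at 1 week was -0.43 against -0.09 over all assays, and 0.96 when scaled to snoRNA202 alone. With snoRNA202 alone 6 were higher and 0 lower, beside 80 and 0 of all 166 assays, and with U6 alone 0 were higher and 12 lower, beside 2 and 125. These counts at 1 week were 0 higher and 0 lower without 1-week replicate 2 or without untreated replicate 1, and 1 higher and 1 lower without 1-week replicate 1 or without untreated replicate 2. At 8 weeks 0 of the 15 passed the limma test and 2 had an unadjusted p under 0.05, beside 5 and 40 of the 166 tested assays, and the median was -0.28 against -0.04 over all assays. That median was 0.18 with the 3 control RNAs, 0.83 with U6 alone and 0.05 without 8-week replicate 1. The values at 8 weeks ran from -2.01 for miR-210, the hypoxia-induced miRNA, and -0.81 for miR-218 to 0.34 for miR-221 and 1.20 for miR-132.

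Lists of miRNAs of other liver cells were set beside the arms in the same way. Of the 4 tested hepatocyte miRNAs 3 were lower at 4 weeks, when 16.9% of all tested assays were, with log2 differences of -3.28 for miR-802, -2.76 for miR-192 and -2.49 for miR-194, while miR-122 had a value of -0.23. The course of miR-122 was another one, with log2 differences of -1.20 at 1 week and 0.09 at 8 weeks, and it did not pass at any of the 3 times. At 1 week it was called lower when centred on all determined assays or on their geometric mean, and with U6 alone. At 4 weeks 3 of the list were also lower without each card in turn, and 1 was lower with U6 alone. The mean centred level of these 4 lay between 4.24 and 4.27 in untreated liver and was 3.18 on both cards after 1 week. It lay between 1.91 and 2.21 after 4 weeks, and between 3.12 and 3.20 after 8 weeks. This mean was lowest at 4 weeks. With snoRNA202 alone as the reference, the median log2 difference of the list at 1 week turned positive, to 0.40.

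Of the 5 leukocyte miRNAs, 4 were higher at 1 week and 4 at 4 weeks, beside 18.1% and 13.3% of all tested assays. Their median log2 difference at 1 week was 1.63, which turned to -0.75 with U6 alone. Centred on the mean or the geometric mean of all determined assays, 2 were higher at each of these times, and without normalization 0 were. With U6 alone 0 were higher and 1 lower at 1 week, and 5 were higher at 4 weeks. The counts were 2 at 1 week without 1-week replicate 2, and 2 at 4 weeks without untreated replicate 2. miR-223, the miRNA of granulocytes and macrophages, was higher by 2.06 and 2.77 on the log2 scale. The mean centred level of the 5 lay between -0.62 and -0.44 in untreated liver and between 0.78 and 0.91 after 1 week. It lay between 0.90 and 1.06 after 4 weeks, and between 0.05 and 0.30 after 8 weeks. Among miRNAs of stellate cells and smooth muscle, 2 of 4 tested were higher at 4 weeks, miR-214 at 1.69 and miR-199a-3p at 1.10, and 1 or 0 were higher without each card in turn. With the geometric mean 1 was higher, and without normalization 0. The mean centred level of these 4 ran from 0.89 to 1.11 on untreated cards and from 1.60 to 1.78 at 4 weeks. For the 2 erythroid and the 4 tested biliary miRNAs the number called by limma was 0 at each of the 3 times. At an unadjusted p under 0.05 the erythroid list had 0 each time, and the biliary list 0 at 1 week, 1 at 4 weeks and 1 at 8 weeks. Over all 166 tested assays 54, 50 and 5 were called at 1, 4 and 8 weeks, and 73, 73 and 40 had an unadjusted p under 0.05. At 1 week U6 alone called 2 erythroid and 3 biliary miRNAs lower, and snoRNA202 alone called 1 of each list higher, where these scalings called 125 of all 166 assays lower and 80 higher. At 1 week 1 biliary miRNA was higher without untreated replicate 2. At 4 weeks 2 biliary miRNAs were lower without 4-week replicate 1, and 1 was higher with U6 alone. The part of these cell types in the levels of the miR-126 arms was not tested.

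**Figure D4:**
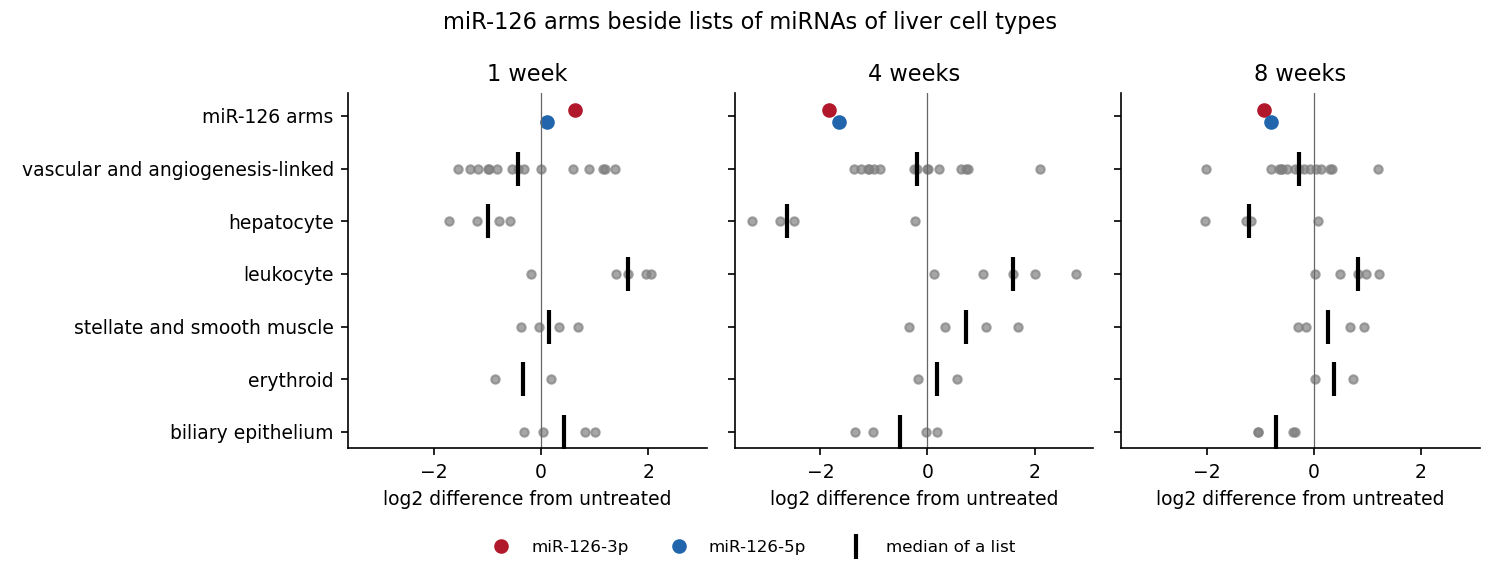
Log2 difference from untreated liver (x axis) of the miR-126 arms (coloured points) and of each tested miRNA of 6 lists (grey points), at 1, 4 and 8 weeks, with a bar at the median of each list. At 4 weeks the arms lie at -1.83 and -1.65, in places 10 and 17 of all 166 tested assays counted from the lowest. They thus lie below most tested assays, and below 15 of 15 vascular miRNAs, of which miR-218 was lowest at -1.36 (SE 1.06). They lie above 3 of 4 hepatocyte miRNAs.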

How the data were processed

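The authors deposited the raw Ct value of each assay on each card, with no normalization and replicates not pooled; the software that set the threshold is not given in the sources used here. RNA was reverse-transcribed without pre-amplification and run on a real-time PCR system, per the study's methods. A second deposited table holds the authors' own fold changes against untreated liver and was not used. The series' design text gives other numbers of mice than the 2 replicates per group in the labels for some times.

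Values were centred on the card mean over 149 assays below Ct 35 on all 8 cards. A single linear model over all 8 cards was then fitted to 166 assays, those with no undetermined value and a mean Ct under 35, by lmFit and eBayes of limma 3.58.1 (R 4.3.3, prior degrees of freedom 3.47), and p-values were adjusted by Benjamini-Hochberg within each comparison. The arm difference and the comparison of all treated with untreated cards used exact permutation tests. The limma fit was checked on simulated cards with independent noise for each assay and shifts balanced in sign. That simulation held no card-wide error, so it does not bear on the scaling. The exact tests were checked on made-up values with known answers. Members, lists and rules for naming assays were chosen with earlier results of these data known. The named assays were the 2 arms, for each arm the 5 most correlated tested assays, the other hairpins with both arms tested, and the lists of vascular, hepatocyte, leukocyte, stellate and smooth muscle, erythroid and biliary miRNAs, with their extreme values. Alternatives were other centrings and Ct limits, undetermined values set to Ct 40, a replicate block, an eBayes trend, a threshold of 0.10, a fit of the compared groups alone, and each card left out. Scaling to single control RNAs, centring without the arms, the block in the exact tests, and the lists under each scaling and left-out card were chosen after seeing the data. The number of cards limits the precision.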

Additional observations from a re-analysis of the deposited data

Results flagged for a closer look

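Treated groups differed from each other by limma's test in 3 cases. The log2 difference of 4 weeks from 1 week was -2.47 for miR-126-3p and -1.77 for miR-126-5p, and that of 8 weeks from 1 week was -1.56 for miR-126-3p. With U6 alone as the reference all 3 had the opposite sign and passed, at 1.42, 2.12 and 1.93. Of 25 alternatives, 1, 7 and 11 lost the call, in the same order. In each case 11 of the 25 did not move the value itself and could not turn its sign. Length of treatment and age at sampling cannot be told apart. Groups of 2 cards are too small for a test of single cards that stand apart.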

How the results depend on the processing

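With 2 cards a group, most calls turned on single cards or on the scaling. Leaving out each card in turn, the log2 difference at 4 weeks against untreated ran from -2.24 to -1.42 for miR-126-3p and from -1.94 to -1.36 for miR-126-5p. The 5p difference of 4 weeks from 1 week ran from -2.06 to -1.47, and the differences of 8 weeks from 1 week from -1.95 to -1.17 (3p) and from -1.59 to -0.25 (5p). The arm difference ran from -0.15 to 0.30 for all CCl4 cards, from -0.40 to 0.045 at 4 weeks and from -0.39 to 0.15 at 8 weeks. Centred on the mean or the geometric mean of all determined assays, the 5p difference at 1 week was -0.24 and -0.23 and the 3p difference of 8 weeks from 1 week -1.27 and -1.25. With the card median the 3p difference of 8 weeks from 1 week was -1.49. Its value of -1.27 did not pass (limma adjusted p = 0.137), and 11 of 25 alternatives lost this call. Of the same 25, the 5p call between 1 and 4 weeks was lost in 7, and the 3p call between these times in 1. For each of these differences 11 of the 25 did not move the value itself. With the 3 control RNAs, the 5p value at 1 week was -0.12, those at 4 weeks -1.19 (3p) and -1.01 (5p), the 5p difference of 4 weeks from 1 week -0.89 and the 3p difference of 8 weeks from 1 week -0.86; without normalization these 5 were -0.39, -2.67, -2.49, -2.10 and -1.06. At 1 week the 3p value was 0.13 without normalization and 0.00 with quantile normalization, which ranked it in the same place on all 4 cards compared. Quantile normalization gave the 5p arm -0.45 at 1 week and -1.08 at 4 weeks, the 3p arm -0.69 at 4 weeks, differences of 4 weeks from 1 week of -0.69 (3p) and -0.62 (5p), and of 8 weeks from 1 week of -0.36 (3p) and 0.041 (5p). With undetermined values at Ct 40, more assays entered the fit, and the values -1.83 and -1.65 at 4 weeks, -1.77 for the 5p arm between 1 and 4 weeks and -1.56 for the 3p arm between 1 and 8 weeks no longer passed. U6 alone gave -1.74 (3p) and -2.26 (5p) at 1 week, -0.32 and -0.14 at 4 weeks, 0.19 and 0.31 at 8 weeks, 1.42 and 2.12 between 1 and 4 weeks, and 1.93 and 2.57 between 1 and 8 weeks. snoRNA135 alone gave -1.80 and -1.62 at 4 weeks and -1.77 for the 3p arm between 1 and 8 weeks. snoRNA202 alone gave 2.03 for the 3p arm at 1 week, -1.44 and -1.25 at 4 weeks, and -2.10 for the 5p arm between 1 and 8 weeks. The calls at 4 weeks against untreated were lost for both arms with the 3 control RNAs, no normalization, quantile normalization, Ct 40 and each of the 3 single control RNAs. With U6 alone the values at 1 week, between 1 and 4 weeks and between 1 and 8 weeks passed for both arms, and with snoRNA202 alone the 3p value at 1 week and the 5p value between 1 and 8 weeks passed. The causes were not tested. Of the 5 assays most like each arm, 1 was shared for the 5p arm when ranked by Spearman correlation, and 3 for each arm when centred on all determined assays. With the replicate number as a block, no call of either arm changed, and the arm difference over the 4 groups had F = 2.58 and an exact permutation p of 0.25. The correlation of replicate differences between groups ran from -0.50 to 0.43, the highest being between 4 and 8 weeks. No pairing by replicate number common to all groups was seen, but such correlations cannot exclude pairing. Counts of called assays, 54, 50 and 5 at 1, 4 and 8 weeks, were 5, 10 and 1 without normalization, 24, 3 and 0 with Ct 40, and 127 at 1 week with U6 alone. At 4 weeks the count was 32 with snoRNA135 alone. At 8 weeks it was 12 with the control RNAs, 11 with an eBayes trend, 15 at an adjusted p of 0.10, 8 with U6 alone, 3 below a mean Ct of 32, 1 centred on all determined assays, and 0 by limma with only the groups compared or snoRNA202 alone, where 32 and 30 assays had an unadjusted p of at most 0.05. Leaving out each card in turn, the count ran from 15 (without untreated replicate 1) to 59 at 1 week and from 22 (without untreated replicate 2) to 51 at 4 weeks. At 1 week it was also 28 and 23 without 1-week replicate 1 and 2, and at 4 weeks 26 without untreated replicate 1 and 32 without 4-week replicate 2. At 8 weeks it was 1 without either untreated card, 2 without either 1-week card and 0 by limma without 8-week replicate 1 or 2, where 45 and 26 assays had an unadjusted p of at most 0.05. Between 1 and 4 weeks the count of 78 was 41 and 37 without 1-week replicate 1 and 2, and 30 without 4-week replicate 2. Between 1 and 8 weeks the count of 40 was 9 and 4 without 1-week replicate 1 and 2, and 4 without 8-week replicate 2.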
